A study of Homo sapiens with 2 samples.

Results

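The enzymes of amino acid breakdown and of the urea cycle were described here in Hep3B cells, through a list of 44 genes taken by symbol from an RNA-seq table of 11511 genes. Values were found for 38 of the 44, and all 38 had a mean of at least 1 FPKM (mapped fragments per kilobase of RNA, relative to the size of the library), the minimum used for ratios. OTC, ARG1, TAT, TDO2, GLS2 and SDS had no value in the table. Hep3B is an established human hepatocellular carcinoma line, bought from a cell repository and grown in DMEM with serum. The control group was 1 library of cells that received no treatment. The treated group was 1 library of cells given A4368, a compound known here only by its code, at 25 µM over 24 h. The sources used here do not give the vehicle. The series asks how A4368 alters gene expression across the genome.

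The liver disposes of surplus amino acids by removing their nitrogen and burning or rebuilding their carbon. The nitrogen enters the urea cycle, which runs through the mitochondrion and the cytosol of hepatocytes and is reduced in many hepatoma lines. The carbon of phenylalanine and tyrosine is released by a chain of cytosolic enzymes, and that of leucine, isoleucine and valine by a mitochondrial route. Propionyl-CoA, formed from isoleucine and valine, is passed on by a further route, and lysine breakdown is grouped apart below.

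The table names no unit, and its values were taken as FPKM. It holds no read counts, and its depth is unknown. With 1 library per group no value carries an error between cultures and no difference was tested. Each difference below is one between these libraries. It is given as the library ratio, log2((A4368 FPKM + 1)/(control FPKM + 1)), which makes differences of weakly expressed genes look smaller, while folds in words are plain ratios of FPKM. In bulk RNA a smaller number of expressing cells and less RNA per cell cannot be told apart. The labelled cell type was checked with marker genes: all 13 hepatocyte and hepatoma markers had values, which summed to 25030 FPKM in the control library and 24620 FPKM in the treated library. Most of this sum came from ALB (9183 and 8930 FPKM) and APOA2 (11457 and 11651 FPKM). It therefore does not show whether the other markers differed between libraries. None of 5 endothelial and 6 stellate cell and fibroblast markers had a value. Of 6 leukocyte markers CD14 and CD68 had values, summing to 32.5 and 30.4 FPKM, whereas PTPRC, the marker common to leukocytes, had none. Of 4 cholangiocyte markers KRT19, EPCAM and SOX9 had values, summing to 661 FPKM in the control library and 509 FPKM in the treated library, and KRT7 had none. KRT19, EPCAM and SOX9 were each lower with A4368, SOX9 at 41.2 FPKM in the control library and 20.1 FPKM in the treated library. Their part in the results below was not tested.

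The members without values and those with values differed in the DNA before their starts. RefSeq (GRCh38.p14) gave a start for 39 of the 44 members, matched by symbol or synonym, and the 250 bases before each start were read. The measure was the CpG ratio, the number of CG dinucleotides over the number that the C and G content predicts. A gene was called CpG-poor when no start of it reached 0.6. All 5 members without a value that had a sequence (OTC, ARG1, TDO2, GLS2 and SDS) were CpG-poor, against 6 of 34 members with values. Over all protein-coding genes with a sequence, 12.8% of the 9647 with values and 61.4% of the 6196 without were CpG-poor, so the members lie along a split that the whole table shows.

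The upstream sequences of 4 members without a value are shown to make this visible. OTC condenses ornithine with carbamoyl phosphate, ARG1 is the liver arginase that releases urea, TDO2 opens the ring of tryptophan and SDS deaminates serine. Capitals mark every CG dinucleotide, and each sequence runs 5′ to 3′ and ends at the base before the start.
OTC, chrX:38352354-38352603, plus strand: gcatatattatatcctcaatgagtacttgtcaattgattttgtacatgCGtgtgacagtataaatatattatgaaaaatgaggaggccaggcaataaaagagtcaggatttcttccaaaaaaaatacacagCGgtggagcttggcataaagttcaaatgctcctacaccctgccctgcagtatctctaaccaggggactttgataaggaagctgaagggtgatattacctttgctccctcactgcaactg
ARG1, chr6:131572976-131573225, plus strand: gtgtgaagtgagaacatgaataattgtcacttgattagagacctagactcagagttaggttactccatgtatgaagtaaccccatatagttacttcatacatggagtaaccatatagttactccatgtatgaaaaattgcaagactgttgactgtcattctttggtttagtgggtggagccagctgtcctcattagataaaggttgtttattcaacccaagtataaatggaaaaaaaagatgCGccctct
TDO2, chr4:155903446-155903695, plus strand: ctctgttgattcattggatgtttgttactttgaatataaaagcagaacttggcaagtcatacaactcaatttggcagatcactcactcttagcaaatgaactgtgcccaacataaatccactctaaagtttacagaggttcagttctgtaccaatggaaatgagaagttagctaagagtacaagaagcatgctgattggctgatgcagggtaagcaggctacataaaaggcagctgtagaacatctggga
SDS, chr12:113403888-113404137, minus strand: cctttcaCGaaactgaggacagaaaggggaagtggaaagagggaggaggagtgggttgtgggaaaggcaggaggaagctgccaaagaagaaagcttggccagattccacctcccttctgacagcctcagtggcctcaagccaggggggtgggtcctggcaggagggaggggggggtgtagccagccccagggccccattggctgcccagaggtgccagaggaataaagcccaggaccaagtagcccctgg
The CpG ratios were 0.20 for OTC, 0.11 for ARG1, 0 for TDO2 and 0.045 for SDS, from 2, 1, 0 and 1 CG dinucleotides. The letters TATAAA, searched on both strands, were present in the first 3 of these, in ARG1 beginning 29 bases before the start, in OTC 192 and in TDO2 216 bases before it. None of the 34 members with values had TATAAA in this window, and 7.95% of protein-coding genes with values and 18.0% of those without did. These are matches of letters, not shown sites.

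For comparison, members that were measured are shown in the same way. HPD, with the lowest library ratio of the list, has 2 starts in RefSeq, and GCDH and DBT are among the members with the highest ratios.
HPD, upstream start, chr12:121888612-121888861, minus strand: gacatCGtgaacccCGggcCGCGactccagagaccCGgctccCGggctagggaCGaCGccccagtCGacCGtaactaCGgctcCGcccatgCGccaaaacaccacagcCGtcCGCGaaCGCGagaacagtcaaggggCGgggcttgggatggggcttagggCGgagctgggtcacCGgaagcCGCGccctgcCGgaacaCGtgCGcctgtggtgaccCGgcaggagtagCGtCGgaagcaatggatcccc
HPD, downstream start, chr12:121858860-121859109, minus strand: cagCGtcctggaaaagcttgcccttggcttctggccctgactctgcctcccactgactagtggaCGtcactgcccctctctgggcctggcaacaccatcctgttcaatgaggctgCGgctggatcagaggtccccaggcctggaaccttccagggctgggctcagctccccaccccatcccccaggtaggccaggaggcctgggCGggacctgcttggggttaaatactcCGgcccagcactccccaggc
GCDH, chr19:12890879-12891128, plus strand: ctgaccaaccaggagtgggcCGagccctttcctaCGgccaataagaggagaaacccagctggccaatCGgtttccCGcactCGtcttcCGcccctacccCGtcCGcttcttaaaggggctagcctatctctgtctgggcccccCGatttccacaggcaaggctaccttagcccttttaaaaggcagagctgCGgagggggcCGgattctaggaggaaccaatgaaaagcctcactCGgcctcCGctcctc
DBT, chr1:100249835-100250084, minus strand: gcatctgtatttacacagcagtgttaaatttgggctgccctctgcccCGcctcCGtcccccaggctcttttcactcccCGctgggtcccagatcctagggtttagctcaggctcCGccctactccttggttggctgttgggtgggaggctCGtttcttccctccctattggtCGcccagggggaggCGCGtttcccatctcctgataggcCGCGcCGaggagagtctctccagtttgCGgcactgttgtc
The starts of HPD had CpG ratios of 0.98 and 0.19, and the table does not show which start the measured RNA came from. GCDH had 0.60 at the start shown and 0.62 at another and DBT had 0.53, so these genes lay near the limit rather than at the CpG-rich end. The CpG-poor members with values were CPS1, NAGS, BCKDHA, DBT, ALDH6A1 and ALDH7A1. Of these CPS1 was the lowest member of all at a mean of 1.17 FPKM, while ALDH7A1 reached 52.0 FPKM. The letters GGGCGG, a GC box, stood on either strand before 28 of the 34 measured members and before 1 of the 5 without a value, GLS2, beside 75.1% of protein-coding genes with values and 41.8% of those without.

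**Figure D1:**
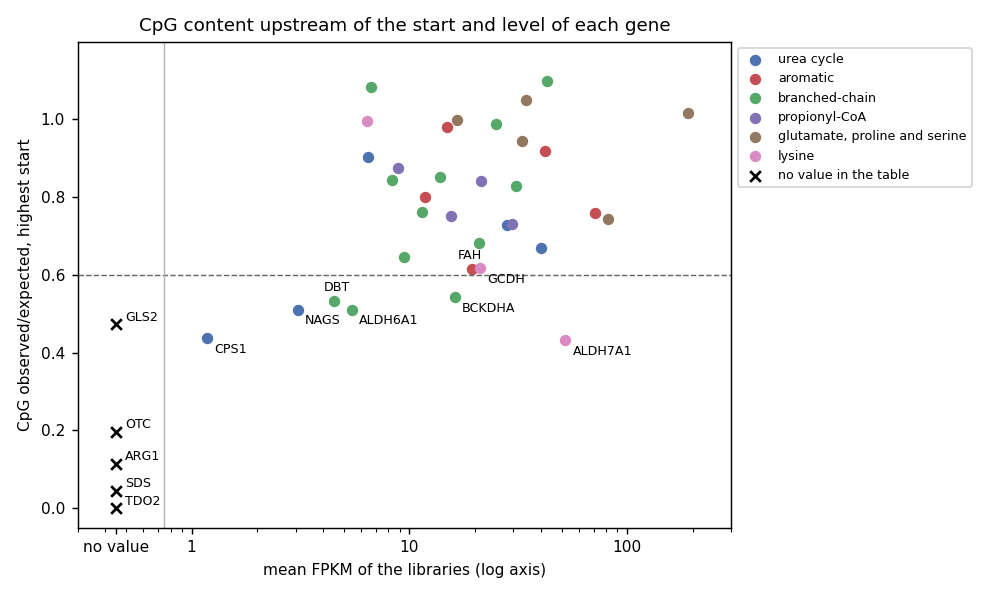
CpG ratio of the 250 bases before the start (highest over the starts of a gene, vertical axis) against the mean FPKM of the libraries (log axis), 1 point a gene, coloured by role, with members without a value as crosses at the left. The dashed line marks 0.6: all 5 crosses and 6 of 34 points lie below it.

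Levels per transcript length spanned a wide range in the control library. GLUD1 was highest at 199 FPKM, followed by the mitochondrial aspartate aminotransferase gene GOT2 at 82.7 FPKM and PCBD1 at 70.5 FPKM, and CPS1 was lowest at 1.18 FPKM. A mean under 5 FPKM was found for 4 of the 38, CPS1, NAGS, PRODH and DBT. Summed over the 38 genes, the level was 1062 FPKM in the control library and 1080.3 FPKM in the treated library.

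**Figure D2:**
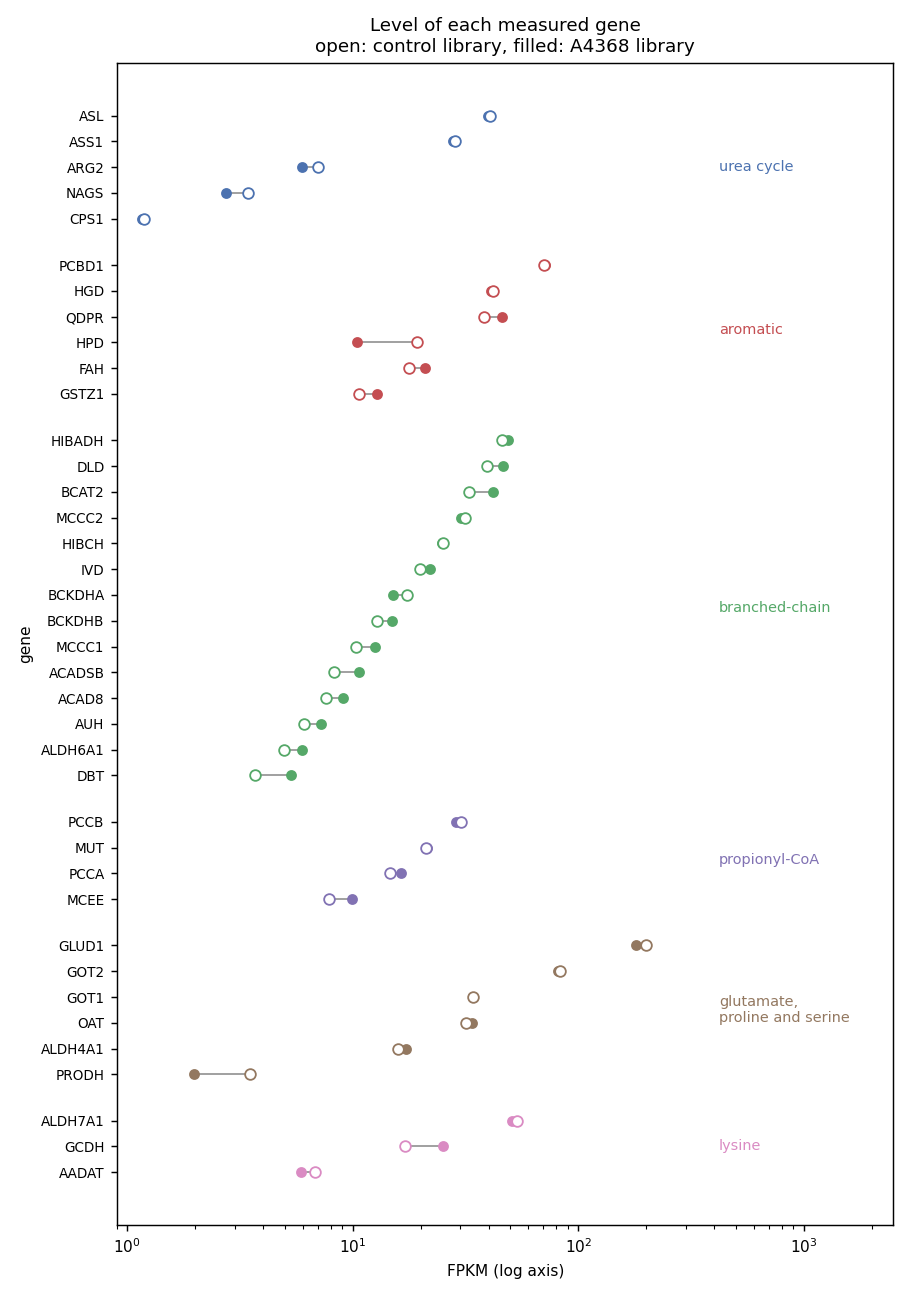
FPKM of each of the 38 measured members (log axis), grouped by role, with the control library as open and the A4368 library as filled circles. The widest gaps are those of HPD and PRODH, which are lower with A4368, and of GCDH and DBT, which are higher.

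Across the 38 members 22 had a higher and 16 a lower value with A4368, where 52% of all 11238 genes at or above the minimum were higher and 48% were lower. The median library ratio was 0.05, against 0.0098 over all genes. A limit of 1.5-fold on the ratio scale was passed by HPD and PRODH, both lower (2.12% of all genes were lower by this much), and by no member in the other direction (1.08% of all genes). At a limit of 25% on the same scale the count was 4 higher, GCDH, DBT, BCAT2 and ACADSB, beside 7.31% of all genes, and the same 2 lower, beside 7.79%. Counts of this size are near the background, and by these limits the list as a whole did not stand out from the table. Of the 38 members, 15 lay among the highest 25% of all genes and 7 among the lowest 25%. Branched-chain genes made up 9 of the 15, and this excess was not tested. The sign of small ratios depends on the scale of the libraries. When both were brought to a common total, counted without the 50 most abundant genes (called the rescaling below), 60.9% of all genes and 28 of the 38 members were higher. The members that changed sign were CPS1, ASS1, ASL, HGD, HIBCH and GOT2, which had ratios of -0.03 to 0.03 on both scales.

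In the urea cycle the measured members were level or slightly lower with A4368. All 5 had lower values as deposited, with a median ratio of -0.03, and none passed the 25% limit on the ratio scale. The plain fold of NAGS, a weakly expressed gene, was 1.251 lower, just past that limit. On the rescaled libraries the median was 0.02, 3 of the 5 were higher, and ARG2 and NAGS were still lower. ASS1, which joins citrulline to aspartate, stood at 28.4 FPKM in the control library and 27.8 FPKM in the treated library. ASL, which splits the product into arginine and fumarate, stood at 40.7 and 39.9 FPKM. These cytosolic enzymes were the abundant part of the cycle and differed between libraries by 1.02-fold each.

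The mitochondrial entry to the cycle was low in both libraries. CPS1, which makes carbamoyl phosphate from ammonia, stood at 1.18 FPKM in the control library and 1.16 FPKM in the treated library. NAGS, whose product N-acetylglutamate activates that enzyme, stood at 3.42 and 2.73 FPKM, a ratio of -0.24. ARG2, the mitochondrial arginase found mainly outside the liver, stood at 6.98 and 5.96 FPKM, with a ratio of -0.20. It shares 35.1% of its sequence words (stretches of 31 bases) with VTI1B, an overlapping gene of the other strand that was higher with A4368 (ratio 0.18), so that the value of ARG2 is uncertain. With OTC and ARG1 without values, the measured cycle consisted of abundant ASS1 and ASL beside low CPS1, NAGS and ARG2.

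The aromatic group was split, with 1 enzyme much lower than the rest of its chain. HPD, which turns hydroxyphenylpyruvate from tyrosine into homogentisate, stood at 19.3 FPKM in the control library and 10.4 FPKM in the treated library, a ratio of -0.83. It was 1.85-fold lower and ranked 85 from the lowest of 11238 genes. HGD, which opens the ring of homogentisate, stood at 41.8 and 41.1 FPKM. GSTZ1, the next enzyme of the chain, stood at 10.7 FPKM in the control library and 12.9 FPKM in the treated library, and FAH, the last one, at 17.8 and 21.0 FPKM. Both were higher by about the same amount, 1.20-fold for GSTZ1 and 1.18-fold for FAH. The level of HPD per unit of HGD thus went from 0.46 in the control to 0.25 with A4368.

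The cofactor enzymes of phenylalanine hydroxylation belong to the same group. QDPR, which regenerates tetrahydrobiopterin, stood at 38.0 FPKM in the control library and 45.8 FPKM in the treated library, 1.20-fold higher. PCBD1, which acts before it in that cycle, stood at 70.5 and 71.0 FPKM. Of the 6 measured aromatic members 4 were higher and 2 lower, or 5 and HPD alone after the rescaling, with a median ratio of 0.12 as deposited.

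Branched-chain breakdown was the largest group, and most of its members were higher. Of its 14 genes, all measured, 11 (78.6%) had higher values with A4368, beside 52% of all genes. After the rescaling 12 were higher, beside 60.9% of all genes. Smaller groups had similar shares: 3 of 4 propionyl-CoA members as deposited, and 5 of 6 aromatic members after the rescaling. The median ratio was 0.22, and 9 of the 14 lay above 0.14, the ratio that 25% of all genes exceed. On the ratio scale none passed 1.5-fold, and 3 passed the 25% limit, beside 7.31% of all genes. The summed level of the group was 266 FPKM in the control library and 295 FPKM in the treated library. BCAT2, the mitochondrial aminotransferase that starts the route, stood at 32.8 and 41.8 FPKM, 1.27-fold higher.

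The branched-chain ketoacid dehydrogenase complex carries out the committed step, and its subunit genes did not move as 1 block. DBT, the acyltransferase at the core, stood at 3.69 FPKM in the control library and 5.34 FPKM in the treated library, 1.45-fold higher and the highest ratio of the group at 0.44. BCKDHB, the beta subunit of the decarboxylase, stood at 12.8 and 15.0 FPKM, and DLD, the flavoprotein shared with other ketoacid dehydrogenases, at 39.6 and 46.2 FPKM, each 1.17-fold higher. BCKDHA, the alpha subunit that pairs with BCKDHB, was lower at 17.3 and 15.0 FPKM, 1.15-fold. The level of BCKDHA per unit of BCKDHB was 1.35 in the control and 1.005 with A4368. BCKDHA shares 59.6% of its sequence words with 1 overlapping annotated transcript, AC011462.1, which has no value in the table, so its value may hold reads of either.

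Enzymes that act on single branched-chain acids came after this step. For leucine, IVD stood at 19.8 FPKM in the control library and 22.0 FPKM in the treated library, and AUH, the hydratase of the route, at 6.07 and 7.22 FPKM. Methylcrotonyl-CoA carboxylase lies between them. The gene of its biotin-bearing subunit, MCCC1, was higher at 10.3 and 12.5 FPKM, and MCCC2 was near level at 31.6 and 30.2 FPKM. MCCC1 per unit of MCCC2 was 0.33 in the control and 0.42 with A4368. For isoleucine, ACADSB stood at 8.27 and 10.6 FPKM, 1.29-fold higher.

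The valine enzymes differed among themselves. ACAD8, the dehydrogenase of isobutyryl-CoA, stood at 7.63 FPKM in the control library and 9.003 FPKM in the treated library. HIBCH, which frees hydroxyisobutyrate from coenzyme A, was nearly level at 25.2 and 24.8 FPKM. HIBADH, which oxidises that acid, stood at 45.8 and 49.0 FPKM, and ALDH6A1, which follows, at 4.96 and 5.94 FPKM. The members with lower values in the whole group were BCKDHA, MCCC2 and, as deposited, HIBCH.

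**Figure D3:**
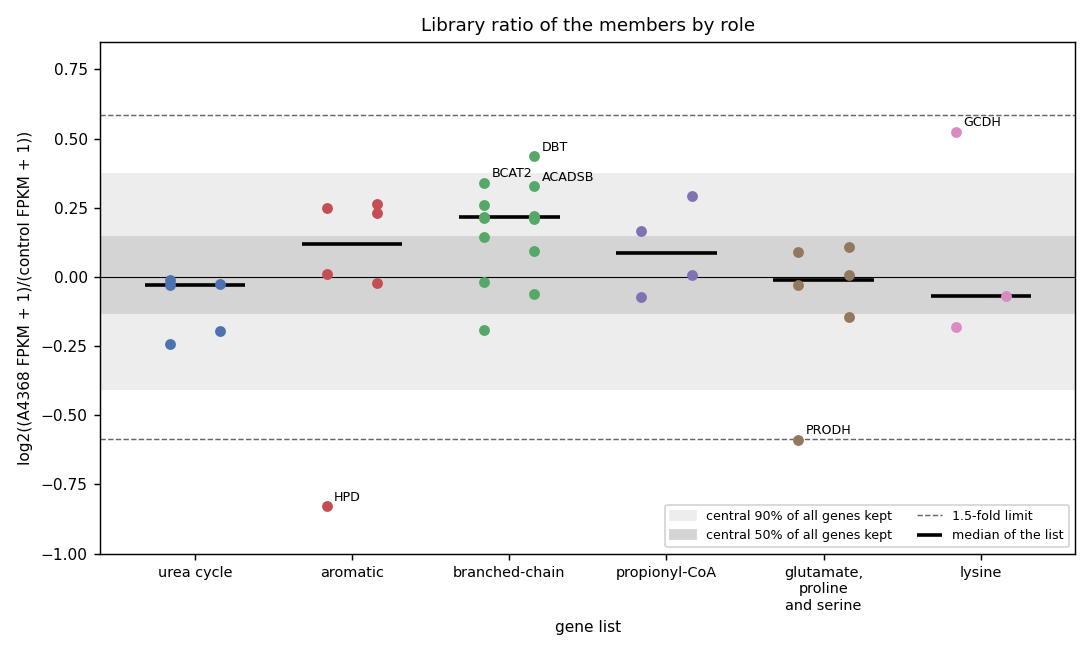
Library ratio of each measured member (vertical axis, log2 of A4368 over control with a pseudocount of 1 FPKM) by role, with black bars for group medians, grey bands for the central 50% and 90% of all 11238 genes and dashed lines at 1.5-fold. Most branched-chain points lie above the inner band, the urea cycle points lie at or below 0 on this deposited scale (3 of 5 lie above it after the rescaling), and HPD and PRODH lie beyond the lower dashed line.

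Set side by side, the group medians were 0.22 for branched-chain breakdown, 0.12 for the aromatic group and -0.03 for the urea cycle. The branched-chain median was above that of the urea cycle by 0.25 and above that of the aromatic group by 0.10, and the aromatic median was above that of the urea cycle by 0.15. The groups hold 14, 6 and 5 genes of 1 pair of libraries, so these differences have no test. The lists of other genes of these pathways, given below, did not keep this order. Their medians were 0.09 for urea cycle carriers and nitrogen donors, 0.07 for branched-chain partners and -0.08 for the aromatic list. The order of the medians thus holds for the members only. The ranges of the groups overlapped: branched-chain ratios ran from -0.19 to 0.44, aromatic ratios from -0.83 to 0.26 and urea cycle ratios from -0.24 to -0.01.

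Propionyl-CoA, the end product of isoleucine and valine, is passed on to the citric acid cycle by a short route. PCCA and PCCB encode the subunits of its carboxylase. PCCA stood at 14.6 FPKM in the control library and 16.4 FPKM in the treated library, and PCCB at 30.2 and 28.7 FPKM. As in methylcrotonyl-CoA carboxylase, the gene of the biotin-bearing subunit had a higher value with A4368, while the other gene was near level. The ratios of PCCB and MCCC2 were -0.07 and -0.06 as deposited, and -0.025 and -0.015 after the rescaling. PCCA per unit of PCCB was 0.48 in the control and 0.57 with A4368. PCCB shares 20.6% of its words with STAG1, an overlapping gene of the other strand, which was at 9.24 and 8.11 FPKM. MCEE, the epimerase, stood at 7.88 and 9.87 FPKM, a ratio of 0.29, and MUT, the cobalamin-dependent mutase, was level at 21.2 and 21.3 FPKM. The median ratio of the 4 genes was 0.09.

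Glutamate links transamination to ammonia, and its enzymes were among the most abundant members. GLUD1, glutamate dehydrogenase, stood at 199 FPKM in the control library and 180 FPKM in the treated library, a ratio of -0.14. It shares 30.7% of its words with GLUD2, a copy listed at 12.5 and 9.05 FPKM, and the sum of both was 211 and 189 FPKM. The aspartate aminotransferase genes were level: the cytosolic GOT1 stood at 34.0 and 34.2 FPKM and GOT2 at 82.7 and 81.0 FPKM. OAT, which turns ornithine into the semialdehyde shared with proline, stood at 31.6 and 33.7 FPKM.

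Proline breakdown differed between its steps. PRODH, which oxidises proline in mitochondria and is a known target of p53, stood at 3.49 FPKM in the control library and 1.98 FPKM in the treated library. It was 1.76-fold lower, with a ratio of -0.59 that ranked 233 from the lowest of all genes. ALDH4A1, which completes the oxidation to glutamate, stood at 15.9 and 17.2 FPKM, and 39.0% of its words occur in 1 overlapping transcript, AL080251.1. The level of PRODH per unit of ALDH4A1 was 0.22 in the control and 0.12 with A4368. PRODH is a low gene at the edge of the 1.5-fold limit, and after the rescaling its ratio was -0.55, no longer past it. The 6 measured genes of this group had a median of -0.01, with 3 higher and 3 lower, or 4 higher after the rescaling.

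Lysine breakdown held the member with the highest ratio. GCDH, the glutaryl-CoA dehydrogenase shared by lysine and tryptophan, stood at 17.1 FPKM in the control library and 25.0 FPKM in the treated library. It was 1.46-fold higher, with a ratio of 0.53 that ranked 188 from the highest of 11238 genes. The other two were lower: ALDH7A1, which oxidises aminoadipate semialdehyde, stood at 53.3 and 50.8 FPKM and AADAT, the aminoadipate aminotransferase, at 6.81 and 5.89 FPKM. GCDH shares 7.64% of its words with other genes.

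Other genes of these pathways were listed by function, 76 in all, of which 63 passed the minimum. Of the 63, 32 were higher and 31 lower, close to the 52% and 48% of all genes, with a median ratio of 0.02. On the ratio scale with its pseudocount only KYNU passed the 1.5-fold limit, while the plain folds of MMAA, AASS, CSAD and ALDH5A1 (higher) and of TCN2 (lower), all weakly expressed, also exceed it. KYNU encodes kynureninase of the tryptophan route and stood at 5.23 FPKM in the control library and 2.78 FPKM in the treated library, 1.88-fold lower with a ratio of -0.72.

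The aromatic, tryptophan and tetrahydrobiopterin list was lower in 9 of 13 genes as deposited and in 8 on the rescaled libraries. Its median was -0.08. The tetrahydrobiopterin synthesis genes GCH1 and SPR were lower, SPR at 55.6 and 44.2 FPKM, and PTS was level at 20.1 and 19.5 FPKM, while QDPR was higher as given above. HAAO, which acts after KYNU, was higher at 12.6 and 16.5 FPKM.

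Partners of the branched-chain route were higher in 7 of 12 genes as deposited and in 8 on the rescaled libraries. Their median was 0.07, and none was among the lowest 25% of all genes. The acyl-CoA dehydrogenases of this route, IVD, ACADSB and ACAD8 among them, and GCDH of lysine breakdown pass electrons to the flavoprotein ETF. Its subunit genes ETFA (181 and 178 FPKM) and ETFB (127 and 137 FPKM) were near level, and ETFDH, the enzyme that takes the electrons on to ubiquinone, was 1.38-fold higher at 10.4 and 14.3 FPKM. ACADM was higher, with 32.2 FPKM in the control library and 39.7 FPKM in the treated library. BCKDK, the kinase that switches the ketoacid dehydrogenase off, stood at 32.2 and 32.9 FPKM. PPM1K, the phosphatase that switches it on, stood at 1.80 and 1.70 FPKM.

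Genes of cobalamin and biotin handling had a median of -0.08, with 5 of 11 higher. MMAA, which serves the mutase, was 1.59-fold higher from a low level, 1.91 and 3.03 FPKM, BTD, which recycles biotin, 1.30-fold higher, and TCN2, a cobalamin carrier, 1.57-fold lower at 1.86 and 1.19 FPKM. Carriers and nitrogen donors of the urea cycle were higher in 4 of 7 genes with a median of 0.09. GPT, an alanine aminotransferase, was higher at 3.52 and 4.34 FPKM. CA5B was higher from a low level, 1.09 and 1.45 FPKM, and shares 29.85% of its words with other genes. SLC25A15, the mitochondrial ornithine carrier, was lower at 4.99 and 4.48 FPKM, and SLC25A13 was lower at 27.4 and 24.2 FPKM.

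Among lysine and other amino acids 12 of 20 genes were higher, with a median of 0.07. CSAD, of taurine synthesis, had the highest ratio at 0.57, with 4.48 FPKM in the control library and 7.14 FPKM in the treated library. AASS, which starts lysine breakdown ahead of ALDH7A1, was 1.59-fold higher at 1.98 and 3.15 FPKM. FTCD, of histidine breakdown, stood at 15.0 and 21.2 FPKM, whereas HAL, the first enzyme of that route, stood at 3.95 and 2.78 FPKM. GLDC, the decarboxylase of glycine cleavage, was 1.31-fold lower at 41.2 and 31.6 FPKM. PRODH2, a hydroxyproline dehydrogenase related to PRODH, was 1.34-fold lower at 3.42 and 2.55 FPKM.

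**Figure D4:**
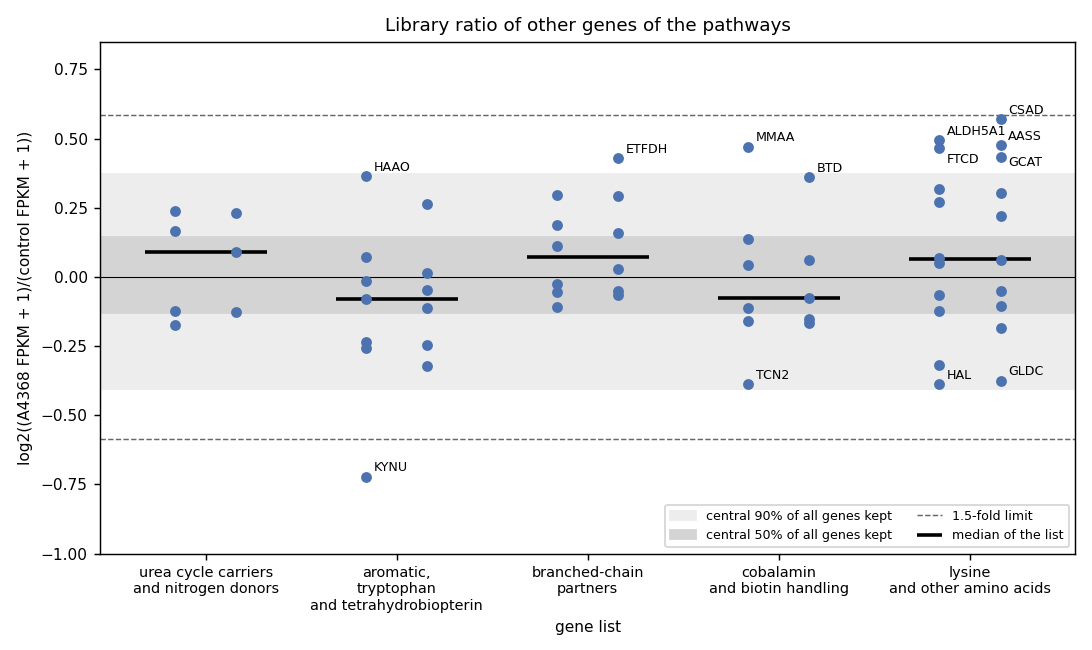
Library ratio of the 63 other genes of these pathways by list (vertical axis, log2 of A4368 over control with a pseudocount of 1 FPKM), with black bars for medians, grey bands for the central 50% and 90% of all genes and dashed lines at 1.5-fold. KYNU is the point beyond the lower dashed line, and CSAD lies just inside the upper one.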

How the data were processed

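RNA-seq of 1 control and 1 A4368-treated Hep3B library was used. TopHat2 2.0.12, Bowtie2 2.2.3 and Cufflinks appear in the submitters' processing notes, with the build hg19. The annotation, strandedness, RNA selection and depth were not found in these sources. No unit stands in the header, and the authors' deposited values were taken as FPKM. Of 24302 lines, 11511 carried a symbol with a value for each library. The lowest mean was 0.496 FPKM, so low genes are missing by a rule not given.

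Ratios used a pseudocount of 1 FPKM and a minimum mean of 1 FPKM (11238 genes kept, 273 removed). No test was possible with 1 library per group. The members and lists were chosen with earlier results of these data known. Named genes were the members, then genes of each other list past 1.5-fold or with the largest ratios, plus pathway partners chosen after their values were seen. Sequence sharing was measured as the part of the distinct 31-base words of a gene, on either strand, that GENCODE release 29 transcripts of other genes also hold (99.6% of genes matched). MUT, CCBL1 and CCBL2 were matched through synonyms. Ratio and rescaling steps were tested on simulated data. Alternatives were pseudocounts of 0.1 and 5, other filters, fold limits and scalings, and a run without genes sharing at least 50% of their words. A few items are not reported here. Python 3.11.15, numpy 2.4.6 and pandas 2.3.3 were used.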

Additional observations from a re-analysis of the deposited data

How the results depend on the processing

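Settings that changed a count or moved a group median by over 1.5 times are given here. The members lower by 1.5-fold numbered 2 as reported and 1 with a pseudocount of 5, with a minimum mean of 5 FPKM or after the rescaling, PRODH (-0.28 with the pseudocount of 5) being the one lost. At a 2-fold limit there were 0, and at the 25% limit 4 were higher. With a pseudocount of 5 the ratio of DBT was 0.25 and that of KYNU -0.40, and the branched-chain median was above the aromatic one by 0.047. After the rescaling the urea cycle median was 0.017 with 3 higher, the propionyl-CoA median 0.13, the glutamate, proline and serine median 0.037 and the lysine median -0.019. The glutamate, proline and serine median was 0.0080 with a minimum mean of 5 FPKM. The branched-chain median lay above that of the urea cycle by 0.17 to 0.26 under the settings that gave medians. Centring all ratios on a common value shifts both medians alike, and dropping the minimum mean changed no measured member. Those settings could therefore not alter the difference. The rescaling multiplies each library by 1 factor, so it could alter the difference only slightly (0.24). The run without genes of shared sequence dropped BCKDHA alone from these groups (0.25). Both ends of the range came from the pseudocounts, 0.17 with 5 and 0.26 with 0.1.

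Of the other pathway genes, those higher by 1.5-fold on the ratio scale with its pseudocount numbered 0 as reported, 3 with a pseudocount of 0.1, 1 after the rescaling and 9 at the 25% limit. Those lower numbered 1 as reported, 2 with a pseudocount of 0.1, 0 with a pseudocount of 5, with a minimum mean of 5 FPKM or at 2-fold, and 5 at the 25% limit. After the rescaling their median was 0.063, and the list medians were 0.13 for urea cycle carriers, -0.036 for aromatic genes, 0.12 for branched-chain partners, -0.035 for cobalamin and biotin handling and 0.11 for lysine and other amino acids. With a pseudocount of 5 the aromatic, cobalamin and lysine lists were at -0.050, -0.047 and 0.043. With a minimum mean of 5 FPKM the carriers were at -0.018, the branched-chain partners at 0.11 and the lysine list at 0.17. The rescaling raised the ratios of all listed genes and shifted the median of all genes from 0.0098 to 0.055. The filters and limits changed only which genes were counted. A pseudocount of 5 makes ratios smaller and one of 0.1 makes them larger, most of all for weakly expressed genes. No paired analysis was possible because each group has 1 library. The depth is unknown, so counting error cannot be given.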

Other observations

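Several members start back to back with a gene on the other strand. Within 1000 bases upstream of a RefSeq start, 8 members had such a neighbour with a value in the table. As deposited, 6 of the 8 pairs had ratios of the same sign, some of them near 0. The share over all such gene pairs was not measured, so this count has no background. ACADSB and IKZF5, a zinc finger gene that starts 211 bases away, were both higher, IKZF5 at 5.01 FPKM in the control library and 6.83 FPKM in the treated library. BCKDHA and the exosome gene EXOSC5, 459 bases away, were both lower, EXOSC5 at 34.4 and 30.8 FPKM. GSTZ1 and the mannosyltransferase gene POMT2, 153 bases away, were both higher, POMT2 at 5.24 and 5.82 FPKM. PSMD9 starts 179 bases from the upstream start of HPD and stood at 26.9 and 25.6 FPKM, a ratio of -0.07 beside -0.83 for HPD. THYN1, the neighbour of ACAD8, was level at 22.7 and 22.8 FPKM, and LIN52, the neighbour of ALDH6A1, was higher at 5.75 and 6.34 FPKM. LANCL1, the neighbour of 1 of the 3 starts of CPS1, stood at 18.5 and 23.3 FPKM. CENPQ, the neighbour of MUT, stood at 13.8 and 13.1 FPKM. The ratios of CPS1 (-0.01 as deposited, 0.02 after the rescaling) and MUT (0.0072) were near 0. These values are a description of 1 pair of libraries.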
